A study of Mus musculus with 2 samples.

Results

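Transcripts of the collagen genes were examined in endothelial cells sorted from the embryonic mouse kidney. The members were all genes whose symbol in the array annotation has the form of a collagen alpha chain, such as Col4a1, read from probe sets that the annotation gives to 1 gene. There were 42 such genes, measured by 82 probe sets, among 18193 genes in all. By type they were 6 basement membrane chains of type IV, 11 fibrillar chains, 5 chains of type VI, 9 fibril-associated chains, 4 transmembrane chains, 3 short-chain network chains, 2 multiplexins and 2 others. Col6a6, Col21a1 and Col28a1 were not analysed here.

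The series holds 1 group of 2 arrays and no control group. Each array was hybridised with RNA of a pool of about 5 to 10 kidneys, taken on embryonic day E15.5 (labelled Theiler 23) from mice of the CD-1 strain with the transgene Tg(TIE2GFP)287Sato, in which the promoter of the endothelial receptor gene Tie2 (Tek) drives GFP. Kidneys were dissociated with trypsin, green cells were sorted, and the RNA was amplified in 2 rounds. The Tie2 promoter is also known to be active in some blood cells. The titles of the samples name FLK1 and the labelled source is the lining of the renal artery and vein, whereas the protocol describes whole dissociated kidneys. Nothing in the labels says that the pools came from separate litters. With 1 array per pool, technical and biological parts of the difference between arrays cannot be told apart. With 1 group no test was possible, and every value below describes these pools alone.

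Collagens are the main structural proteins of the extracellular matrix. Each molecule is a helix of alpha chains wound together, so the genes of 1 type work as sets whose chains assemble with each other. Type IV forms the mesh of basement membranes on which endothelium rests, types I, III and V form the fibrils of connective tissue, and type VI forms beaded filaments around mesenchymal cells. Endothelium is known for type IV, XV and XVIII collagen, and fibroblasts and other stromal cells are known for types I, III, V and VI.

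Each gene is given by the intensity of its probe set (no physical unit), first in replicate 1 and second in replicate 2. Because intensity depends on the sequence of a probe set, no gene was ranked against another by level. A gene was counted as above background when its brightest probe set exceeded, on both arrays, the 95th percentile of 83 probe sets for smell, pheromone and taste receptors, which was 202.5 and 204.1. Differences are log2 of replicate 1 minus replicate 2 after the arrays were centred. Among genes above background they had an SD of 0.51, and 95% of these genes lay between -1.01 and 0.98. When these genes were ordered by mean intensity into 4 bands of equal size, the SD of the difference was 0.57, 0.58, 0.47 and 0.37 from the dimmest band to the brightest. In the same order, 7.8%, 6.6%, 3.6% and 1.4% of genes were over 2-fold apart in either direction, so dim genes passed 2-fold more often. All 12 endothelial markers were above background, against 61.0% of all genes. Tek was at 15908 and 21499, Kdr at 8939 and 12139, Cdh5 at 22435 and 20733 and Pecam1 at 1257 and 2247.

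Of the 42 collagen genes, 26 (61.9%) were above background on both arrays, close to the 61.0% of all genes. Replicate 2 alone added 3 genes and replicate 1 alone added 0, which left 13 genes below the limit on both. The detected chains covered every type. They included the basement membrane chains Col4a1 and Col4a2, the multiplexins Col15a1 and Col18a1, the fibrillar chains of types I, III and V, and 3 chains of type VI. The arrays were alike for the first of these sets and far apart for the last.

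**Figure D1:**
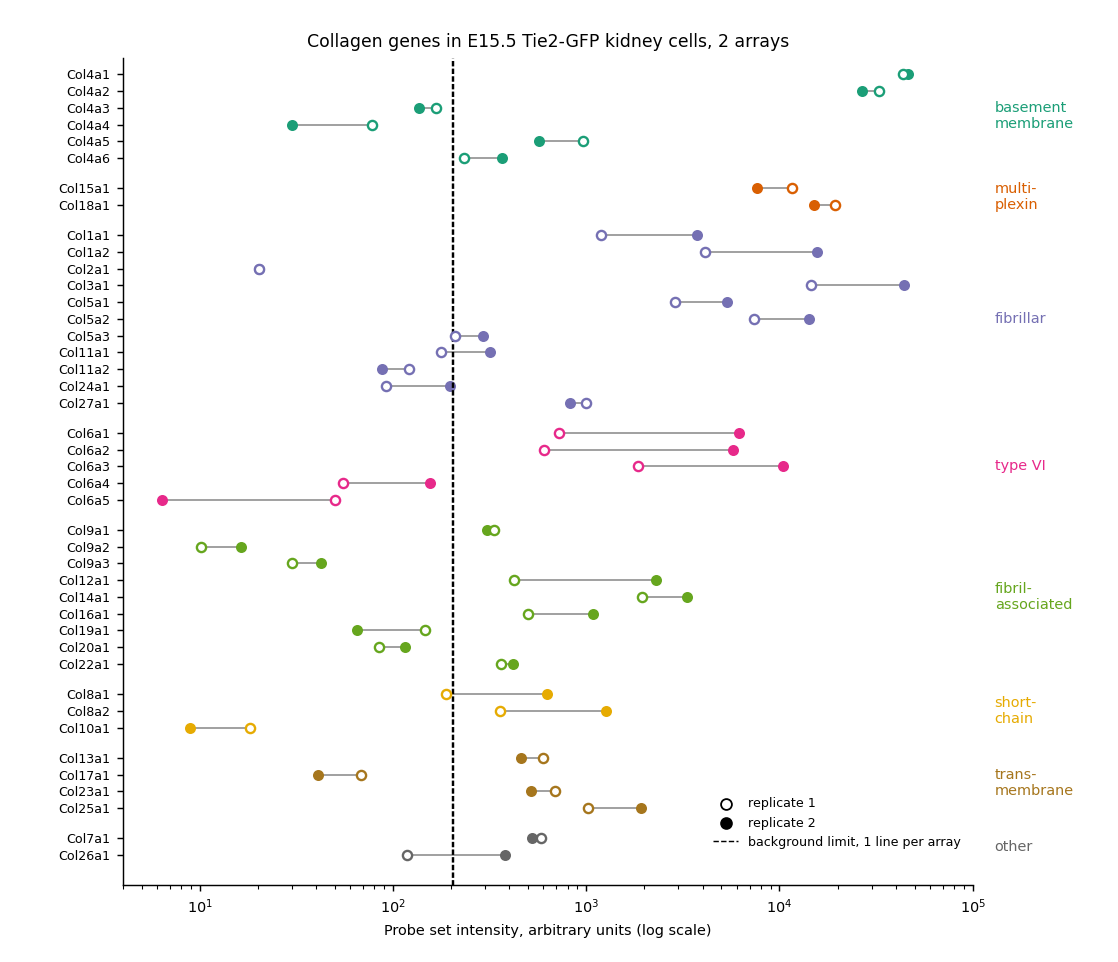
Intensity of each of the 42 collagen genes in replicate 1 (open circles) and replicate 2 (filled circles), in arbitrary units on a log scale, grouped and coloured by collagen type, with the background limits dashed. Each row is to be read along itself, since levels of different genes are not comparable. The circles of Col4a1 nearly coincide, whereas Col6a1, Col6a2 and Col6a3 lie far to the right in replicate 2.

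The basement membrane collagens were measured first. Col4a1, which encodes the more abundant chain of the common type IV network, gave 43709 and 46200. Its partner Col4a2 gave 32728 and 26789. The arrays differed by 1.03-fold for Col4a1 and 1.25-fold for Col4a2, both inside the spread of genes of that brightness (SD 0.37 on the log2 scale). The second probe set of Col4a1 gave 12476 and 13036, with a log2 difference of -0.03. These genes lie head to head on the chromosome, on opposite strands with 0 protein-coding genes between them, and are known to share a promoter. Their annotated promoter windows in RefSeq (GRCm38.p6) share 78 bases. As annotated, the transcripts overlap at their starts by 22 bases. The stretch from the start of Col4a2 to the start of Col4a1 is shown because it carries both starts, read on the strand of Col4a2 at chr8:11312805-11312826 (+), with capitals for a GC box (GGGCGG).

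Col4a1 and Col4a2: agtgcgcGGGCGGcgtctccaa

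Of the other type IV chains, Col4a5 and Col4a6 passed the limit on both arrays. Col4a5, a chain of the network of mature glomerular basement membrane, gave 962.3 and 571.5, which was 1.73-fold higher in replicate 1. Its second probe set gave 271.5 and 387.9 and was higher in replicate 2, so no direction is given for this gene. Col4a6, the head-to-head neighbour of Col4a5, gave 231.8 and 364.9, close to the limit, and its second probe set passed only in replicate 2 (180.1 and 237.6). Col4a3 and Col4a4, which assemble with Col4a5 in the mature glomerulus and are known there mainly as podocyte products, were below the limit on both arrays, at 166.1 and 135.7 and at 77.9 and 30.1. In all, 4 of the 6 type IV genes were above background, against 61.0% of all genes. Of these 4, 0 differed by over 2-fold, which is no result about type IV. The shares of all genes were 2.57% higher in replicate 2 and 2.28% higher in replicate 1. The median difference of the 4 was 0.14, beside 0.04 for all genes above background.

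Both multiplexins were above background. Col18a1, whose product is cut to release endostatin, an inhibitor of vessel growth, gave 19337 and 15028. Col15a1, a linker between basement membrane and the matrix beneath it, gave 11681 and 7617. Replicate 1 was higher for both, by 1.32-fold and 1.57-fold, with log2 differences of 0.40 and 0.65. Genes as bright had an SD of 0.37, so the difference was about the size of that spread for Col18a1 and larger than it for Col15a1. Both lay inside the range that holds 95% of all genes above background. The second probe set of Col18a1 gave 11909 and 7417 and lay on the same side.

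Fibrillar collagens were detected and, for the chains of types I, III and V, were brighter in replicate 2. Col3a1, the chain of type III of reticular connective tissue, gave 14533 and 43894. The type I chains gave 1192 and 3736 for Col1a1 and 4127 and 15568 for Col1a2. These genes encode the fibrils of loose connective tissue, and each was about as far apart as the others, by 2.95-fold for Col3a1, 3.06-fold for Col1a1 and 3.68-fold for Col1a2. On the log2 scale the differences were -1.56, -1.61 and -1.88, all outside the range of 95% of genes. That of Col1a1 rests on 1 of its 2 probe sets, since the other passed the limit in replicate 1 only (216.5 and 76.7).

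Type V collagen nucleates and sets the width of type I fibrils. Col5a2 gave 7426 and 14250, 1.87-fold higher in replicate 2, and Col5a1 gave 2888 and 5361, 1.81-fold higher. Their log2 differences of -0.91 and -0.86 lay inside the range of 95% of all genes, but exceeded the SD of genes as bright (0.37 for Col5a2 and 0.47 for Col5a1). The second probe set of Col5a2, at -1.41, lay outside that range, and that of Col5a1 was near equality at -0.03. Col5a3 gave 210.2 and 291.2, close to the limit. Col27a1, a fibrillar collagen of cartilage, went the other way by a small amount, at 993.7 and 823, with a second probe set at 836.2 and 740.5. Of the cartilage chains, Col2a1 (20.3 and 20.3) and Col11a2 (120.9 and 87.6) were below the limit, and Col11a1 passed it in replicate 2 only (177 and 318), at least 1.53-fold higher there. Col24a1 was below it (91.4 and 196.8). Over the 7 fibrillar genes above background the median difference was -0.91, with 6 of 7 higher in replicate 2 and 3 by over 2-fold. Of all 11102 genes above background, 5083 were higher in replicate 2, and 2.57% were so by over 2-fold.

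The type VI chains were the furthest apart. Col6a1 gave 722.8 and 6182. Col6a2 gave 604.6 and 5775, and Col6a3, the long chain that joins them in the filament, gave 1854 and 10394. Replicate 2 was higher by 8.35-fold, 9.32-fold and 5.47-fold, with log2 differences of -3.06, -3.22 and -2.45. Of 11102 genes above background, ordered from the replicate 2 end, Col6a2 held place 4, Col6a1 place 5 and Col6a3 place 18. The second probe set of Col6a2 gave 448.5 and 1313, a smaller log2 difference of -1.51 in the same direction. Col6a4 (55.3 and 155.5) and Col6a5 (49.9 and 6.40), later chains that can take the place of Col6a3, were below the limit on both arrays.

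**Figure D2:**
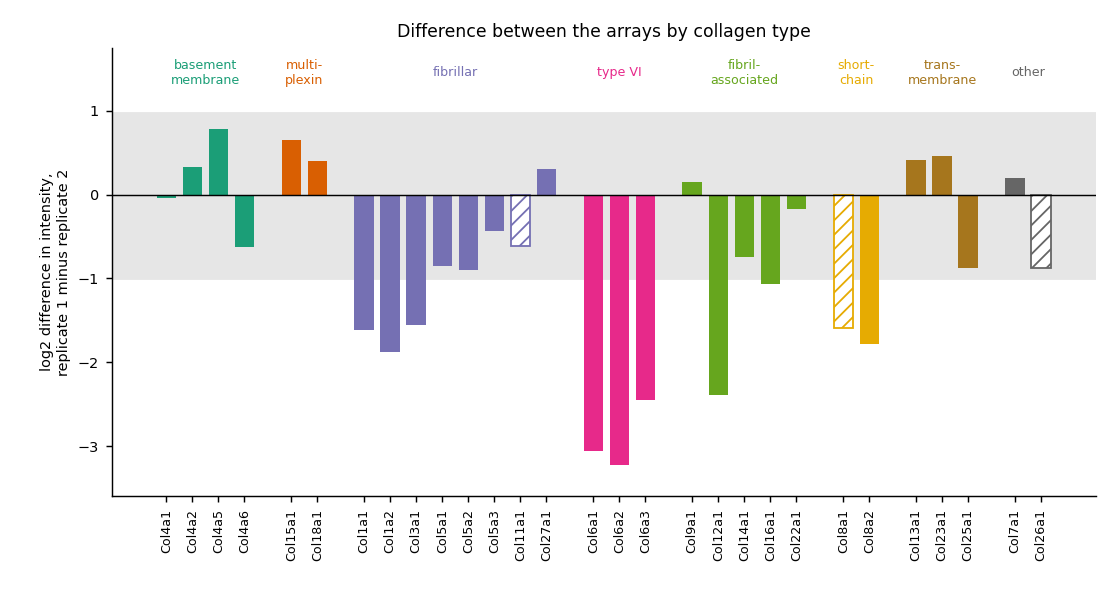
Log2 difference in intensity, replicate 1 minus replicate 2, for each of the 29 collagen genes above background on at least 1 array, grouped by type. Solid bars are the 26 genes above background on both arrays, hatched bars are lower bounds for the 3 detected in replicate 2 alone, and the grey band holds 95% of all genes above background. Fibrillar and type VI bars point to replicate 2, except that of Col27a1, while Col4a2, Col15a1 and Col18a1 lie a little above 0.

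Fibril-associated collagens, which sit on the surface of fibrils, were mixed. Col12a1 gave 424.6 and 2289, which was 5.26-fold higher in replicate 2. Col14a1 gave 1932 and 3317 (1.68-fold) and Col16a1 gave 501 and 1079 (2.10-fold), again higher in replicate 2. The 3 genes thus lay on the side of the fibrillar chains, Col12a1 furthest. Col22a1 (360.6 and 417.6) and Col9a1 (333.6 and 307.6) differed by less than 1.2-fold. Col9a2, Col9a3, Col19a1 and Col20a1 were below the limit on both arrays, between 10.1 and 146.6.

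Among the short-chain collagens of types VIII and X, which form hexagonal nets, Col8a2 gave 357.4 and 1258 and was 3.44-fold higher in replicate 2. Col8a1 passed the limit there only (187.8 and 624.8), at least 3.01-fold higher, and Col10a1, of growth cartilage, was below it (18.1 and 8.87). Col8a1 rests on 1 of its 3 probe sets, since the others were below the limit and nearly even (103.5 and 105.8, and 17.7 and 21.3). Of the transmembrane collagens, Col13a1 gave 593.6 and 458.6, Col23a1 gave 692.2 and 517.5 and Col25a1 gave 1020 and 1912, all within 2-fold, while Col17a1 of skin hemidesmosomes was below the limit (68.4 and 41.0). Col7a1, of the anchoring fibrils of skin, gave 582.3 and 521.5. Col26a1 passed the limit in replicate 2 only (118.3 and 379.5), at least 1.83-fold higher.

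Counted over the family, 9 of the 26 collagen genes above background were over 2-fold higher in replicate 2, against 2.57% of all genes above background. These 9 were Col6a2, Col6a1, Col6a3, Col12a1, Col1a2, Col8a2, Col1a1, Col3a1 and Col16a1. In the other direction 0 of 26 were over 2-fold higher in replicate 1, against 2.28% of all genes. The median difference over the 26 was -0.68, with 17 higher in replicate 2 and 9 in replicate 1. Of all 11102 genes above background, 5083 were higher in replicate 2 and 6019 in replicate 1. For the 16 collagens that are neither fibrillar nor of type VI the median was 0.05, and 3 of these 16 were over 2-fold higher in replicate 2. The family median depended on the probe sets and was -0.04 when each gene was given the median of its probe sets, and the count over 2-fold was again 9, of which 7 were the same genes. The differences have no replicate check, and chains of 1 type are not independent of each other.

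**Figure D3:**
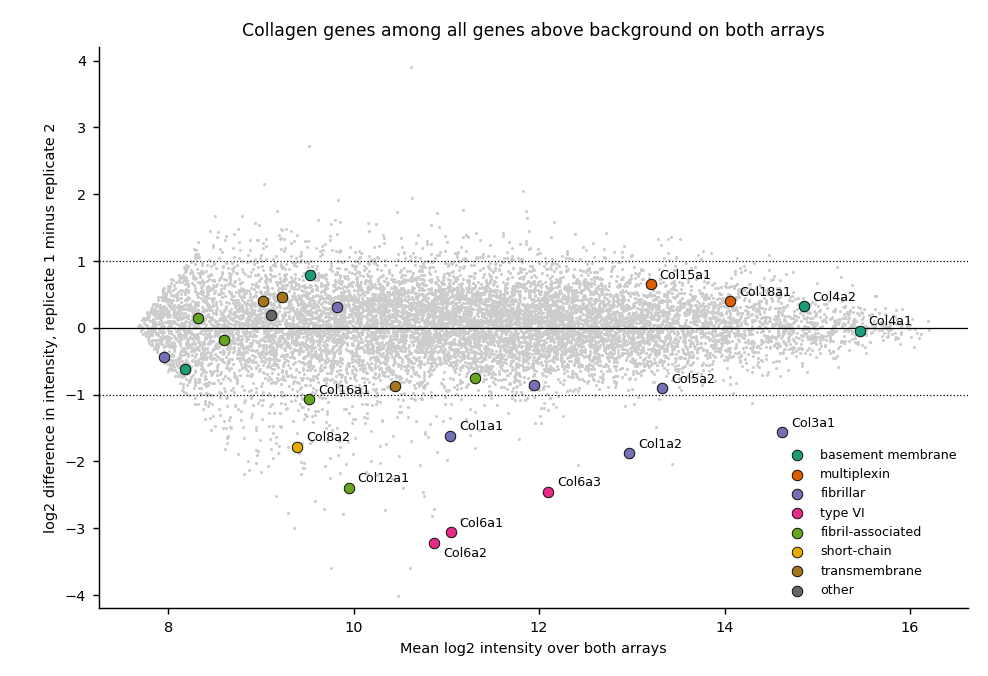
Log2 difference between the arrays (y axis) against the mean log2 intensity over both arrays (x axis) for all 11102 genes above background (grey) and the 26 collagen genes among them, coloured by type, with dotted lines at a 2-fold difference. Col1a2 and Col3a1 lie below the cloud at high intensity, and the type VI genes lie near its lower edge.

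Of the 42 genes 27 had more than 1 probe set. There were 13 further probe sets above background on both arrays, of 12 genes. Of the 13, 11 lay on the same side as the one used, with those of Col4a1 and Col5a1 near equality at -0.03. The exceptions were the probe set of Col4a5 given above and 1 of Col1a2 at 634.9 and 509.4, against 3248 and 9787 for the third probe set of Col1a2. The second probe set of Col3a1 (1395 and 5965) and that of Col5a2 (2107 and 5719) gave log2 differences of -2.06 and -1.41. In 9 of the genes above background, another probe set missed the limit on at least 1 array. The second probe set of Col1a1 passed in replicate 1 only (216.5 and 76.7), so Col1a1 rests on 1 of its 2. The 3 others of Col12a1 gave 220.2 and 126.4, 30.1 and 66.0, and 13.2 and 7.03, so Col12a1 rests on 1 of its 4. For both genes, the probe set that passed in replicate 1 only was brighter there, against the one used. Such probe sets are not among the 13. Of the 3 probe sets of Col5a1, the second gave 1879 and 1963, near equality, and the third 87.8 and 39.5, below the limit. Col14a1 had 1 more above it (259.3 and 541.3) and 1 below (6.94 and 36.7), and so had Col23a1 (464.6 and 292.9, and 16.1 and 20.4). The remaining probe sets of Col5a3 (127.6 and 93.3), Col9a1 (166.5 and 140.6) and Col22a1 (58.9 and 25.6, and 9.06 and 10.8) were below it. Annotation by exon was not used here, so it was not tested which transcripts these probe sets read.

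Several collagen genes lie side by side in the genome. Col3a1 and Col5a2 are neighbours with 0 protein-coding genes between them, and both were higher in replicate 2. Col6a1 and Col6a2 are neighbours too, and Col18a1 lies on the same chromosome with 2 protein-coding genes between it and Col6a1. Col18a1 was 1.32-fold higher in replicate 1 where Col6a1 was 8.35-fold higher in replicate 2. The 250 bases before the start of 4 genes are shown from the RefSeq promoter table (GRCm38.p6), 5′ to 3′ on the strand of each gene, for 2 fibrillar chains brighter in replicate 2 and for the nearby pair that differ in direction. The windows are chr6:4505368-4505617 (+) for Col1a2, chr1:45311288-45311537 (+) for Col3a1, chr10:76726045-76726294 (-) for Col6a1 and chr10:77166531-77166780 (-) for Col18a1. Capitals mark a CCAAT box (CCAAT), a GC box (GGGCGG) or a TATA box (TATAAA) on either strand.

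Col1a2: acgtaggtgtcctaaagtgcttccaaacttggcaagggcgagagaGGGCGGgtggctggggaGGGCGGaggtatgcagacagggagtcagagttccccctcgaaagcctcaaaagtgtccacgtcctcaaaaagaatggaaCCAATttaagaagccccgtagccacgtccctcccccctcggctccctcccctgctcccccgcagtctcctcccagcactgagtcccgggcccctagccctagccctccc

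Col3a1: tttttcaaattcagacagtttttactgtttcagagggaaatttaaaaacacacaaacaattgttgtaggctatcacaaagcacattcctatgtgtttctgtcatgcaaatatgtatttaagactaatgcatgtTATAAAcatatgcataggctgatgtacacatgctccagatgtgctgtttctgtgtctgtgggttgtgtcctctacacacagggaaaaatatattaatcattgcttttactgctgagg

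Col6a1: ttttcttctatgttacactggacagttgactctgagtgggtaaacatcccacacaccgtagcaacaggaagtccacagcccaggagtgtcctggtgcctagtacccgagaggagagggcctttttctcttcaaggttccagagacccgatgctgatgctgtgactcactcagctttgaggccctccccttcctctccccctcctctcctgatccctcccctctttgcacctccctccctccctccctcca

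Col18a1: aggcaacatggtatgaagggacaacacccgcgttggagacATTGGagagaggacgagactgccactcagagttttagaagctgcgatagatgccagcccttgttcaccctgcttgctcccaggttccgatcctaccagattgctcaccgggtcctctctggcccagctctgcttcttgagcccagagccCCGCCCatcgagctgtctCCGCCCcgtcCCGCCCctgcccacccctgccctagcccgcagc

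In Col1a2 the CCAAT box began 109 bases before the start and GC boxes began 205 and 188 bases before it. Col3a1 held a TATA box 117 bases before its start, Col6a1 held none of these letters, and Col18a1 held 3 GC boxes within 61 bases of its start and a CCAAT box further out, all on the opposite strand. The promoter table matched 33 of the 42 collagen genes, with 36 windows. Of these, 13 (36.1%) held a CCAAT box, 21 (58.3%) a GC box and 5 (13.9%) a TATA box, against 33.8%, 32.7% and 12.4% of 32851 windows of all genes. A GC box was found in 5 of 8 windows of the collagens over 2-fold higher in replicate 2 and in 10 of 16 windows of those above background within 2-fold, the same share (62.5%). A match of letters is a description and no evidence of binding.

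Collagen chains need enzymes and chaperones of the endoplasmic reticulum before they can leave the cell. Of 17 measured genes of chain modification and folding, 16 were above background, with P4ha3 the exception (48.9 and 94.2). The prolyl hydroxylase genes P4ha1 and P4ha2 gave 2463 and 3134 and 477.9 and 554.1, and P4hb, the subunit they share, gave 39980 and 47404. The collagen chaperone Serpinh1, chosen after its values were seen, gave 26221 and 22864. Their share above background exceeded the 61.0% of all genes. Their median difference was 0.08, beside 0.04 for all genes. Of the 16, 0 differed by over 2-fold in either direction, which is near the shares of all genes (2.57% higher in replicate 2 and 2.28% higher in replicate 1) and is no result about this list.

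Genes that trim and crosslink collagen outside the cell were counted next. Of 10 measured, 8 were above background, against 61.0% of all genes, with a median difference of -0.64. That median depended on the limit and the probe sets, at -0.004 with the 99th percentile limit, -0.018 at 2 times the limit and -0.21 with the median of probe sets. Lox, the lysyl oxidase that crosslinks fibrillar collagen, gave 712.2 and 4198, which was 5.75-fold higher in replicate 2. Its relative Loxl1 gave 265.2 and 756.7 (2.79-fold) and the procollagen protease Tll1 gave 216.2 and 730.1 (3.30-fold), also higher in replicate 2. These 3 of 8 were the members over 2-fold apart, against 2.57% of all genes. The procollagen C-proteinase Bmp1 gave 2419 and 2109, the N-proteinase Adamts3 gave 240.6 and 434.1 and the proteinase enhancer Pcolce gave 1036 and 1465. Pxdn, the peroxidase that crosslinks type IV collagen, was chosen after its values were seen and gave 28169 and 28375, a difference of 1.02-fold.

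Collagen receptors and fibril partners were counted in the same way. Of 9 measured receptors, 7 exceeded background and the median difference was -0.57. Replicate 2 was the higher in each of the 7, beside 5083 of 11102 genes above background. Itga1 and Itga2 differed by only 1.06-fold and 1.08-fold. The share of all genes above background was 61.0%. At 2 times the limit the count of receptors was 4 of 9, against 52.4% of all genes. With the median of probe sets it was 4 of 9, against 53.4%. The integrin chains Itga1, Itga2 and Itga10 gave 701.8 and 762.5, 394.7 and 436.7, and 408.1 and 670.4, and their shared partner Itgb1 gave 5161 and 7224. Ddr2, a receptor kinase for fibrillar collagen, gave 390.1 and 1902 and was the 1 receptor over 2-fold apart (4.76-fold). Of 11 proteins that bind fibrils 8 were above background, again against 61.0% of all genes, with a median of -0.86 that was -1.34 without suffixed probe sets, which can read several transcripts. The proteoglycans Dcn and Lum gave 992.6 and 3690 (3.63-fold) and 522.8 and 2398 (4.48-fold), and Thbs2 gave 607.1 and 1676 (2.69-fold), these 3 being over 2-fold higher in replicate 2. Of all genes above background 2.57% were, beside 1 of 7 receptors and 3 of 8 fibril partners. Bgn gave 4057 and 5922 and Fmod gave 209.7 and 313.2. Sparc, a collagen chaperone of the matrix chosen after its values were seen, was the 1 of the 8 higher in replicate 1 (29928 and 20371).

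**Figure D4:**
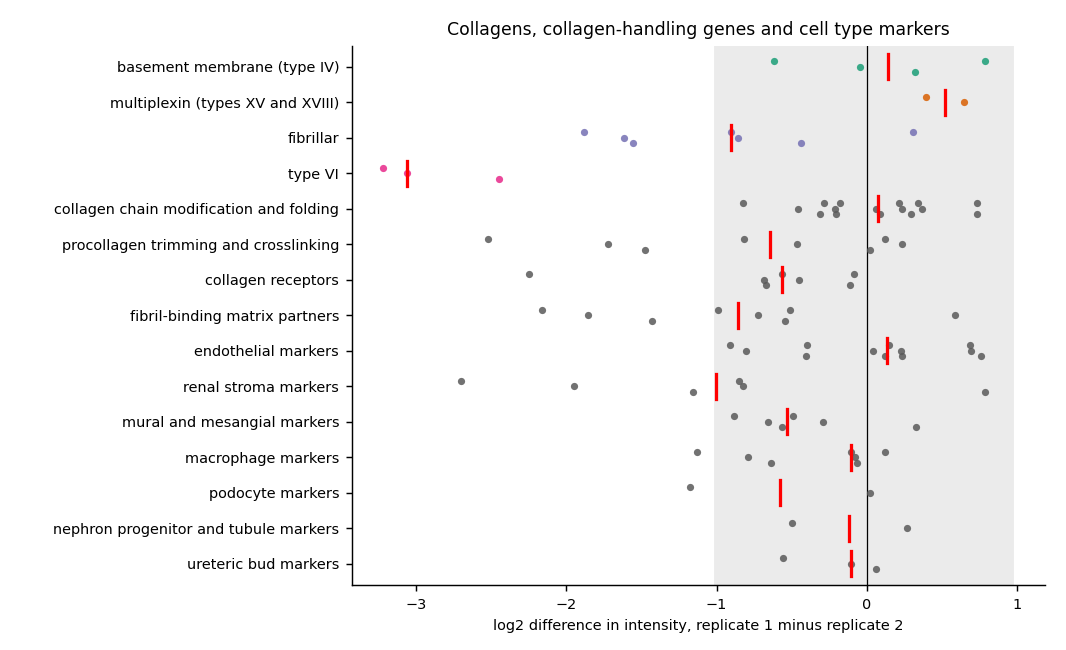
Dots are single genes above background on both arrays, placed by the log2 of replicate 1 over replicate 2 after centring, in 4 collagen types, 4 lists of genes that handle or bind collagen and 7 lists of cell type markers, with the median of each list (red) and the range that holds 95% of genes above background (grey). The type VI median of -3.06 lies furthest to the left, and that of chain modification and folding at 0.08 lies near 0.

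Markers of stromal cells differed between the arrays in the same direction as the fibrillar and type VI chains. Of 9 measured renal stroma markers 6 were above background, against 61.0% of all genes. A further 3 passed in replicate 2 only, and 0 were below the limit on both arrays. Their median difference was -1.004, and their summed intensity was 9907 and 16505. Such a sum, here and below, is weighted to its brightest members and is not a measure of cells. Pdgfra, a receptor of mesenchymal cells, was at 719.8 and 4811, 6.52-fold higher in replicate 2. The transcription factor genes Tbx18 (281.9 and 1115, 3.86-fold) and Foxd1 (775.4 and 1775, 2.24-fold) were higher there too. Pdgfra, Tbx18 and Foxd1 were the 3 of 6 over 2-fold higher in replicate 2, against 2.57% of all genes. Of the 3 that passed the limit in replicate 2 alone, Smoc2 (107.3 and 904.9) was at least 4.36-fold higher, Twist2 (174.7 and 502.3) at least 2.42-fold and Tcf21 (186.4 and 352.2) at least 1.70-fold. Rarb went the other way (5649 and 3344), and it was chosen after its values were seen. It gave most of the summed intensity in replicate 1. The part of stromal cells in the collagen differences was not tested, and in pooled RNA more cells of a type and more RNA per cell cannot be told apart.

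Mural and mesangial markers mostly leaned the same way, with a median of -0.53 and a summed intensity of 14167 and 18370. Of 9, 6 were above background, against 61.0% of all genes, and 2 in replicate 2 only. Of the 6, 5 were higher in replicate 2, beside 5083 of 11102 genes above background. The 1 higher in replicate 1 was Mcam (6132 and 4999), the brightest member and a large part of the sum, chosen after its values were seen. Pdgfrb gave 2246 and 4253, Rgs5 1212 and 1838, Cspg4 683.8 and 857.1 and Acta2 2289 and 3693. Des, chosen after its values were seen, was below the limit (77.5 and 106.4). Endothelial markers had a median of 0.14 and a summed intensity of 132484 and 125889. Of the 12, 8 were higher in replicate 1, beside 6019 of 11102 genes above background. The 4 higher in replicate 2 were Tek, Kdr, Pecam1 and Vwf. Vwf (966.7 and 1865) and Flt1 (6321 and 3821), the furthest apart on each side, were chosen after their values were seen. Of the 12, 0 differed by over 2-fold, which is no result about this list. The shares of all genes were 2.57% higher in replicate 2 and 2.28% higher in replicate 1. Both multiplexins and Col4a2 lay on the replicate 1 side of 0. No side is given for the other type IV chains above background. Col4a1 was near equality at -0.045, the probe sets of Col4a5 disagreed and Col4a6 was close to the limit. The part of endothelial cells in these differences was not tested.

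Of 7 macrophage markers all 7 were above background, against 61.0% of all genes, with a median of -0.10. Their summed intensity of 54281 and 65465 was mostly Csf1r. Csf1r gave 34030 and 36806, Adgre1 4305 and 7632, Cd68 2358 and 2218 and Lyz2 8262 and 8857, and Ptprc was the 1 over 2-fold apart (2846 and 6381). Of the epithelial lists, 2 of 4 podocyte markers were above background, with Nphs1 below the limit (89.1 and 100.2), Wt1 above it in replicate 2 only (144 and 346.8), Podxl at 29868 and 30060, and Synpo at 1012 and 2346, over 2-fold apart. Among 7 nephron progenitor and tubule markers 2 were above background, Six2 at 269.5 and 229.5 and Cdh1 at 261.9 and 379.1. Cited1 (11.7 and 13.6), Lhx1 (108.1 and 13.6) and Pax8 (112.5 and 151.2) were below the limit. Eya1 (124 and 318) and Epcam (180.8 and 282.1) passed it in replicate 2 only. Cdh1, Pax8 and Epcam were chosen after their values were seen. For the ureteric bud 3 of 6 were above background, with Wnt11 at 373.9 and 563.7, Gata3 at 378.2 and 416.2 and Krt8 at 426.3 and 418. Ret passed the limit in replicate 1 only (203.2 and 163). For podocytes the sum of 31113 and 32852 was almost all Podxl, which endothelium also expresses, and so is not a measure of podocytes. Summed intensities were 1068 and 1387 for nephron progenitors and tubule and 1695 and 2228 for the ureteric bud. The counts above background in these 3 lists (2 of 4, 2 of 7 and 3 of 6) stand against 61.0% of all genes. Of genes above background, 2.57% were over 2-fold higher in replicate 2, as were Ptprc and Synpo.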

How the data were processed

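Whole-genome mouse expression arrays of 2 sorted cell pools were analysed. The authors deposited 1 linear intensity per probe set and array. GCOS, with no version, is the software in the submitters' processing notes. Means after trimming 2% at each end were 1500.0 on both arrays, so the values had been scaled before deposit. The genome build and any detection calls are not given in the sources used here. The study's methods name a different array, 1 round of amplification and more samples, and were not applied to these arrays.

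Of 45101 probe sets, 34945 had 1 gene in the platform annotation, 932 several, 9160 none, and 64 were array controls. All 42 collagen identifiers were found in the RefSeq gene table (GRCm38.p6), and 0 symbols changed. The brightest probe set by mean log2 intensity stood for a gene. Log2 intensities were centred by removing the difference between the medians of probe sets above background (-0.04). For a gene above the limit on 1 array, the fold was a lower bound against the other array's limit. The number of arrays, 2, limits the precision. No p-value is given.

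The members and gene lists were chosen with earlier results of these data known. In pathway and marker lists the first 4 measured members and every member over 2-fold apart are named. Other members named are said to be chosen after their values were seen. Of the pathway lists, Fkbp10, Adamts2, Adamts14, Loxl2 and Itga11 were not analysed here. Work was done in Python 3.11.15 with numpy 2.4.6 and pandas 2.3.3. The scripts were tested on simulated data.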

Additional observations from a re-analysis of the deposited data

How the results depend on the processing

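Counts over the collagens kept within 1.5 times their value under all settings tried. Genes above background numbered 21 to 30 of 42 (24 of 38 without suffixed probe sets) across limits, probe set choices and quantile normalization. The share of all genes was 52.4% to 72.7%. On either array alone the counts were 26 and 29, against 64% and 64.5%. Genes over 2-fold higher in replicate 2 numbered 8 to 11, against 2.02% to 3.05% of all genes above background. Those over 2-fold higher in replicate 1 were 0 throughout, against 1.68% to 3.25%. With the median of probe sets Col12a1 and Col1a1 left the replicate 2 set, and Col14a1 and Col5a2 joined it. Without suffixed ones Col16a1 and Col6a2 left and Col14a1 joined. Quantile normalization, no centring and a pseudocount of 50 moved no value beyond the SD of all genes divided by the square root of the number of members.

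The family median of -0.68 was -0.83 at the 99th percentile limit, -0.90 at 2 times the limit, -0.041 with the median of probe sets and -0.53 without suffixed probe sets. In the same order of settings, the fibrillar median of -0.91 was -1.26, -1.27 and -0.60 (unmoved without suffixed probe sets). The type VI median of -3.06 was -2.45 with the median of probe sets and -2.76 without suffixed ones. Values by type and for the lists that follow were recomputed by choice after the data had been seen. Above background were 56.7% of all genes at the 99th percentile and 52.4% at 2 times the limit. With the median of probe sets the share was 53.4%. Receptors above background were 4 of 9 at 2 times the limit and 4 with the median of probe sets. Trimming and crosslinking genes were 5, 5 and 4 of 10 at the 99th percentile, at 2 times the limit and with the median of probe sets. Their median of -0.64 was -0.43 at a limit of 100, -0.004 at the 99th percentile, -0.018 at 2 times the limit and -0.21 with the median of probe sets. Fewer genes enter at the stricter limits, and the cause was not tested otherwise. For fibril partners the median of -0.86 was -1.10, -1.12, -1.20 and -1.34 under the 99th percentile, 2 times the limit, the median of probe sets and no suffixed probe sets. No alternative without 1 array gives a difference, since 2 arrays are needed. No paired analysis was possible because there is 1 group. Signal near the limit sets what can be said of Col4a6, Col5a3, Col11a1 and Col24a1, and of Tll1 and Loxl1.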
